A study of Mus musculus with 4 samples.

Results

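The receptors for GABA and glutamate, the main inhibitory and excitatory transmitters of the brain, were followed through the mouse amygdala at the level of their subunit messenger RNAs. The genes were taken by name from the array files (GABA-A alpha, beta, gamma, delta, epsilon, pi, theta and rho subunits, GABA-B subunits, and the AMPA, kainate, delta, NMDA and metabotropic glutamate receptors). A gene was taken where 1 of its probes was marked well above background by the scanner software on 3 or 4 arrays of some group. The name search gave 41 gene names on 76 probes, and 33 genes with 62 probes passed, out of 19463 genes tested in all. Of the 33, 31 were well above background on all 16 arrays. The 8 names that did not pass were Gabra6, Gabre, Gabrp, Gabrq, Gabrr2, Grik3, Grin3a and Grm6. A probe for Grik3 was well above background on at most 3 arrays in all and that for Grm6 on 1 array. The other 6 names had no array well above background.

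The mice were C57BL/6J males aged 10 weeks, wild type or knockout for P2X7R, the product of P2rx7 and a cation channel that opens on extracellular ATP. Each animal was injected into the peritoneum with sterile saline or lipopolysaccharide (LPS, which bacteria carry in their outer membrane and which sets off an immune response) and was killed 6 h later. The labels give the LPS dose as 7.5 µg per mouse and as 250 µg/kg, 4 mice per group and the whole amygdala as tissue. The 4 groups are wild type after saline, wild type after LPS, knockout after saline and knockout after LPS, with 4 single-colour arrays each. The labels do not tie arrays to mice, and p-values therefore reflect how far the arrays of a group spread, which may be technical.

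GABA-A receptors are chloride channels assembled from several subunits, usually of the alpha, beta and gamma classes, with delta taking the place of gamma in receptors outside synapses. GABA-B receptors are G-protein-coupled pairs of the Gabbr1 and Gabbr2 products. AMPA receptors carry fast excitation, NMDA receptors admit calcium and serve synaptic plasticity, kainate receptors tune release and excitability, and metabotropic receptors act through G proteins. In the amygdala, inhibition through GABA-A receptors restrains fear responses, and NMDA receptors take part in fear learning.

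Levels below are log2 processed intensity with the array's own 75th percentile set to 0, and values by array are listed for replicates 1 to 4. Levels are compared only within a probe, because probes differ in brightness. Each gene was represented by its brightest kept probe. Differences are on the log2 scale and carry the standard error from limma (n = 4 arrays per group), and a gene was called at a Benjamini-Hochberg adjusted p under 0.05 over all genes tested.

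The arrays differed in ways that the groups do not explain. All wild-type arrays came from a pair of slides read in 1 scan session and all knockout arrays from another pair of slides read in another session, so genotype, slide and session cannot be told apart. The 75th percentile ranged from 345.9 to 1164.7 between arrays. The targeted gene P2rx7 was lower in knockout, at -1.51 ± 0.25 (adjusted p = 0.000196) after saline and -1.66 ± 0.25 (adjusted p = 9.89e-05) after LPS, and the labels do not say which part of the gene was deleted. Wild-type saline replicates 1 and 2 lay on the other slide than replicates 3 and 4, and the mean level of 8 hippocampal marker genes was -1.04 and -0.85 on the former against 0.22 and 0.37 on the latter. The wild-type LPS arrays did not split in this way. Their mean was -0.84 and -0.81 on the slide of saline replicates 1 and 2, and -0.87 and -1.13 on that of replicates 3 and 4. Knockout saline replicate 1 stood apart: on it, 6 of 33 subunit genes (18.2%) and 15.4% of all genes lay farther from the other 3 arrays than Dixon's critical value for 4 arrays allows, against at most 6.06% of subunit genes and 2.95% of all genes on any other array. Its median distance from the other 3 arrays of its group was 0.82 for the subunit genes, against 0.11 to 0.38 on the other 15 arrays. The mean level of 11 neuronal marker genes ran from 3.94 to 5.02 over the arrays and was highest on this one. Where leaving it out changed a genotype call of a subunit gene, this is stated with that gene. For most other genes values without it are not given, also where it lay far from its group.

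The first question was whether receptor subunit expression differed between genotypes. After saline, 18 of the 33 genes were called, 12 higher and 6 lower in knockout. Among all genes tested 51.0% were called, 28.5% higher and 22.6% lower, so the share of subunit genes called was close to the background. After LPS, 16 were called, 10 higher and 6 lower, where 47.2% of all genes were called, 25.9% higher and 21.4% lower. The 2 genotype comparisons share no arrays, but they share the pairs of slides, the scan sessions and the pooled estimate of spread. In both, 15 genes were called, 10 higher and 5 lower, and none was called in opposite directions. The share of all genes called in both was not counted, so this overlap is not read as a result about the subunits. The median difference of the 33 genes was 0.15 after saline and 0.18 after LPS, beside 0.065 and 0.050 for all genes tested. The 4 knockout arrays did not overlap the 4 wild-type arrays for 15 genes after saline and for 17 after LPS, and for 12 genes all 8 knockout arrays lay apart from all 8 wild-type arrays, beside 46.1%, 51.9% and 29.7% of all genes with a value on every array compared. By class, the GABA-A subunit genes Gabra2, Gabra5, Gabrg1 and Gabrg3 were lower and Gabrb2, Gabrd and Gabrr1 higher in both treatments. The metabotropic gene Grm5, 2 AMPA, 2 kainate and 2 NMDA subunits were higher in both.

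**Figure D1:**
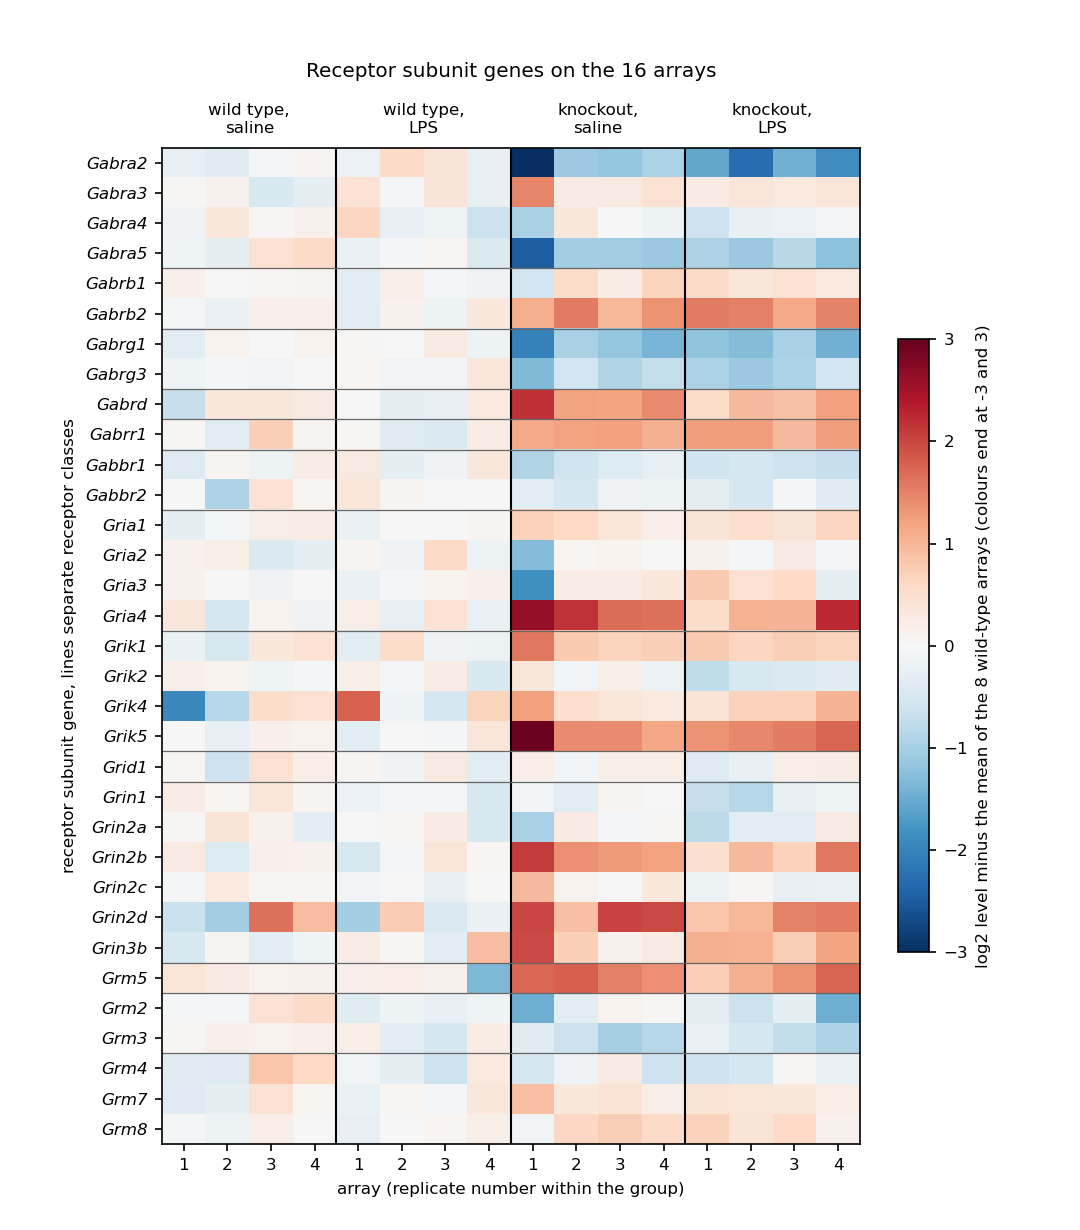
Levels of the 33 receptor subunit genes (rows, ordered by receptor class) on the 16 arrays (columns, by group and replicate), as log2 level minus the mean of the 8 wild-type arrays of that gene, in blue where lower and red where higher. Gabrg1 and Gabrg3 are blue and Grik5 and Gabrb2 red on all 8 knockout arrays, and knockout saline replicate 1 carries the strongest colours for Gabra2 and Grik5.

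The gamma subunits place GABA-A receptors at synapses and form the benzodiazepine site together with an alpha subunit. Gabrg1 and Gabrg3 were called lower in knockout in both treatments. Gabrg1 measured 2.62, 3.05, 2.94 and 3.07 in wild type after saline and 2.98, 2.95, 3.22 and 2.81 after LPS, against 0.94, 1.97, 1.80 and 1.57 in knockout after saline and 1.76, 1.65, 1.99 and 1.52 after LPS. Every knockout array lay below every wild-type array, with a difference of -1.35 ± 0.21 (adjusted p = 0.000108) after saline and -1.26 ± 0.21 (adjusted p = 0.000202) after LPS. Gabrg3 had levels of -0.82, -0.75, -0.79 and -0.70 on the wild-type saline arrays and -0.65, -0.79, -0.77 and -0.34 on the wild-type LPS arrays, and of -2.04, -1.28, -1.60 and -1.41 and -1.66, -1.80, -1.66 and -1.27 on those of the knockout. Its 8 knockout arrays were all below the wild-type arrays, at -0.82 ± 0.18 (adjusted p = 0.00176) and -0.96 ± 0.18 (adjusted p = 0.00056). The second kept probe of Gabrg3, A_51_P372497, was well above background on 7 of 8 wild-type arrays and on 0 of 8 knockout arrays, so it passed the filter through the wild-type arrays alone.

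The alpha subunits determine much of the pharmacology and location of the receptor, and they did not move together. Gabra2, an alpha subunit prominent in forebrain and amygdala, was at 1.70, 1.59, 1.92 and 2.04 in wild type after saline, 1.79, 2.52, 2.34 and 1.73 in wild type after LPS, -2.34, 0.86, 0.80 and 1.001 in knockout after saline and 0.42, -0.33, 0.50 and 0.10 in knockout after LPS. All knockout arrays were below all wild-type arrays, and knockout saline replicate 1 was far below the rest of its group. The difference was -1.73 ± 0.55 (adjusted p = 0.0155) after saline and -1.92 ± 0.55 (adjusted p = 0.00932) after LPS, and without that array the first became -0.92 (adjusted p = 0.00444). It was not called in the fit of the 2 groups compared alone (adjusted p = 0.0649) or with wild-type saline replicates 3 and 4 alone (adjusted p = 0.0513). Gabra5, an alpha subunit of extrasynaptic receptors, measured 0.96, 0.79, 1.55 and 1.66 in wild type after saline and 0.88, 1.03, 1.14 and 0.65 after LPS, against -1.39, 0.072, 0.043 and -0.042 in knockout after saline and 0.14, -0.026, 0.25 and -0.15 after LPS. The genotypes did not overlap, at -1.57 ± 0.29 (adjusted p = 0.000511) and -0.87 ± 0.29 (adjusted p = 0.024), and both of its probes were called lower in each treatment. After LPS the call was lost without wild-type LPS replicate 2 or 3 or knockout LPS replicate 2 or 4 (adjusted p from 0.0516 to 0.0623) and after correction for the GC share of the probe (-0.57, adjusted p = 0.0546).

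Gabra3, an alpha subunit found in monoamine nuclei and amygdala, had levels of 1.56, 1.65, 1.07 and 1.26 on the wild-type saline arrays and 1.96, 1.49, 1.92 and 1.30 on the wild-type LPS arrays, and of 3.0, 1.76, 1.80 and 1.99 and 1.78, 1.90, 1.81 and 1.90 on those of the knockout. Knockout saline replicate 1 was the highest array. It differed by 0.75 ± 0.25 (adjusted p = 0.0206) after saline and 0.18 ± 0.25 (adjusted p = 0.583) after LPS, and the first became 0.47 (adjusted p = 0.0462) without that array and 0.65 (adjusted p = 0.0592) without wild-type saline replicate 3, and was not called in the fit of the 2 groups compared alone (adjusted p = 0.0695). Gabra4, another alpha subunit, had -0.28 ± 0.28 (adjusted p = 0.415) and -0.18 ± 0.28 (adjusted p = 0.626).

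Of the beta subunits, which carry part of the GABA site, Gabrb2 was at 3.59, 3.44, 3.81 and 3.80 in wild type after saline, 3.31, 3.79, 3.496 and 3.97 in wild type after LPS, 4.75, 5.21, 4.66 and 4.99 in knockout after saline and 5.17, 5.16, 4.79 and 5.15 in knockout after LPS. Every knockout array was above every wild-type array, by 1.24 ± 0.18 (adjusted p = 7.66e-05) after saline and 1.43 ± 0.18 (adjusted p = 2.52e-05) after LPS, and another background correction (normexp) gave 0.50 after saline. Gabrb1 differed by 0.15 ± 0.22 (adjusted p = 0.603) and 0.49 ± 0.22 (adjusted p = 0.0836), and knockout saline replicate 1 was its lowest knockout array. Without that array it was called higher in knockout after saline, by 0.41 (adjusted p = 0.0319), and after LPS, where the value stayed and the pooled spread fell (adjusted p = 0.00775).

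Gabrd, the subunit of tonically active receptors outside synapses, measured 1.72, 2.71, 2.74 and 2.66 in wild type after saline and 2.38, 2.14, 2.16 and 2.69 after LPS, against 4.59, 3.61, 3.58 and 3.83 in knockout after saline and 2.95, 3.38, 3.28 and 3.63 after LPS. The knockout arrays were all above the wild-type arrays, by 1.44 ± 0.27 (adjusted p = 0.000476) after saline and 0.97 ± 0.27 (adjusted p = 0.00805) after LPS. Gabrr1, the rho subunit known best from retina, had levels of -3.27, -3.63, -2.58 and -3.22 on the wild-type saline arrays and -3.26, -3.67, -3.73 and -3.08 on the wild-type LPS arrays, and of -2.17, -2.09, -2.07 and -2.25 and -2.05, -2.05, -2.33 and -2.05 on those of the knockout. It lay low on every array, with all knockout arrays above all wild-type arrays. It was higher in knockout by 1.03 ± 0.21 (adjusted p = 0.000903) and 1.31 ± 0.21 (adjusted p = 0.000146).

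Some of these GABA-A genes lie near each other (coordinates are those of the probes, mouse build mm9). On chromosome 7, Gabrg3 (chr7:64433851-64433910) and Gabra5 (chr7:64663486-64663545) were both lower in knockout in each treatment. On chromosome 5, Gabrg1 (chr5:71143181-71143240) and Gabra2 (chr5:71352793-71352852) were lower, and Gabra4 and Gabrb1 were not called. For Gabra2 this depends on the probe. Its other kept probe was called higher after saline, and its averaged probes gave 0.16 after saline and -0.42 after LPS, neither called.

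Gabbr1, which binds GABA in the GABA-B receptor, was at 4.20, 4.67, 4.43 and 4.80 in wild type after saline, 4.84, 4.31, 4.46 and 4.92 in wild type after LPS, 3.68, 3.98, 4.17 and 4.33 in knockout after saline and 3.98, 4.06, 3.96 and 3.88 in knockout after LPS. Groups overlapped after saline and not after LPS. The difference was -0.48 ± 0.19 (adjusted p = 0.0442) and -0.66 ± 0.19 (adjusted p = 0.00982). The saline call was lost without wild-type saline replicate 2, 3 or 4, knockout saline replicate 1, 2 or 3 or any 1 knockout LPS array (adjusted p from 0.0508 to 0.128), and after GC correction (-0.40, adjusted p = 0.114). It was lost too with the slide as a random block (adjusted p = 0.087), with the replicate block (adjusted p = 0.0552), with wild-type saline replicates 3 and 4 alone (adjusted p = 0.0638), with median scaling, without the filter on dim probes and in the fit of the 2 groups compared alone (adjusted p = 0.0562, 0.0605 and 0.102), while normexp gave -1.01 and quantile scaling -0.79. Gabbr2, which couples the pair to G proteins, had -0.16 ± 0.23 (adjusted p = 0.585) and -0.41 ± 0.23 (adjusted p = 0.158).

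**Figure D2:**
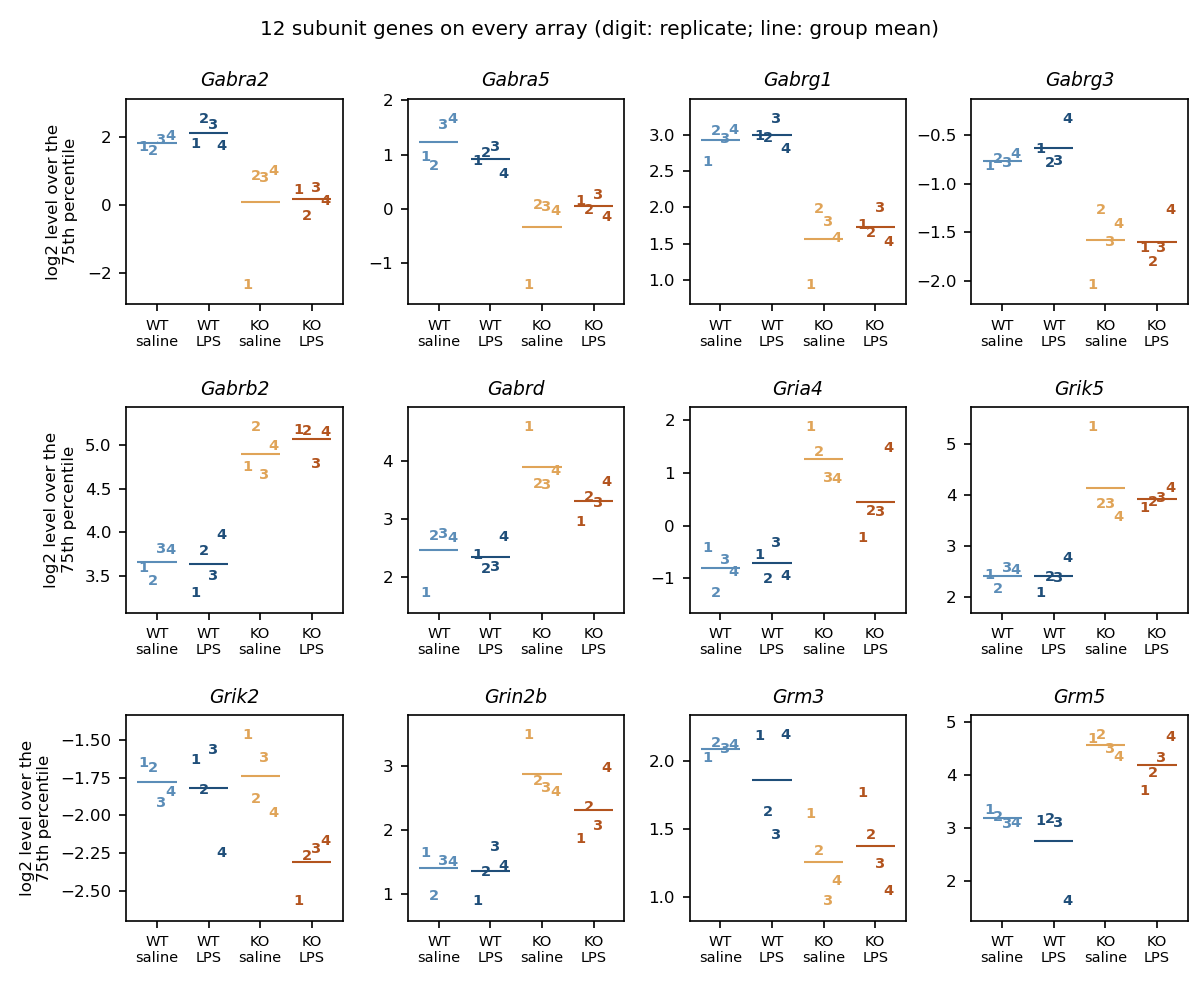
Level of 12 subunit genes on every array, log2 with each array's 75th percentile at 0 (vertical axes differ), with the digit giving the replicate and the line the mean of 4 arrays. In Gabrg1, Gabrg3, Gabrb2 and Grik5 the knockout digits do not overlap the wild-type digits, and in Gabra2, Gabra5 and Grik5 the digit 1 of knockout saline lies apart.

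Among the 15 ionotropic glutamate receptor genes, 7 were called higher and none lower after saline, and 6 higher and 1 lower after LPS, a share near the 51.0% and 47.2% of all genes. These directions are those of the brightest probes, and other probes of Gria2, Gria3, Gria4 and Grin2b were called lower, some of them dim in knockout. Of the AMPA subunits, Gria4, linked to fast-gating receptors of interneurons, measured -0.43, -1.27, -0.66 and -0.88 in wild type after saline and -0.56, -1.01, -0.33 and -0.96 after LPS, against 1.87, 1.41, 0.90 and 0.88 in knockout after saline and -0.23, 0.27, 0.26 and 1.49 after LPS. No knockout array overlapped the wild-type arrays, and the difference was 2.08 ± 0.33 (adjusted p = 0.000137) after saline and 1.17 ± 0.33 (adjusted p = 0.00904) after LPS. Gria1, an AMPA subunit delivered to synapses in plasticity, differed by 0.45 ± 0.16 (adjusted p = 0.0307) and 0.51 ± 0.16 (adjusted p = 0.0174). Its call was lost without wild-type saline replicate 1 or 2 or knockout saline replicate 1 or 2 after saline, and after LPS without knockout LPS replicate 4 or the wild-type LPS array 1 (0.34 to 0.45). The saline call was also lost with normexp (0.21), with median scaling (adjusted p = 0.0547), with the replicate block (adjusted p = 0.0542), in the fit of the 2 groups compared alone (adjusted p = 0.102) and with wild-type saline replicates 3 and 4 alone (0.26), and the LPS call with quantile scaling (0.11). The GC correction gave 0.78 and 0.80. Gria2, whose product keeps calcium out of the channel, had -0.17 ± 0.28 (adjusted p = 0.63) and -0.018 ± 0.28 (adjusted p = 0.963), and Gria3 had -0.27 ± 0.38 (adjusted p = 0.566) and 0.39 ± 0.38 (adjusted p = 0.417). For both, knockout saline replicate 1 lay far below its group, and saline differences without it are not given.

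Kainate receptors are built from low-affinity subunits such as those of Grik1 and Grik2 and high-affinity subunits such as those of Grik4 and Grik5. Grik5 had levels of 2.42, 2.16, 2.56 and 2.52 on the wild-type saline arrays and 2.08, 2.39, 2.37 and 2.76 on the wild-type LPS arrays, and of 5.34, 3.82, 3.83 and 3.56 and 3.75, 3.86, 3.94 and 4.15 on those of the knockout. The knockout arrays were all above the wild-type arrays, by 1.73 ± 0.30 (adjusted p = 0.000283) and 1.52 ± 0.30 (adjusted p = 0.000773). Grik1 was higher by 0.93 ± 0.25 (adjusted p = 0.00646) and 0.72 ± 0.25 (adjusted p = 0.0273). With wild-type saline replicates 3 and 4 alone the saline value was 0.56 and was not called (adjusted p = 0.123). Its LPS call was lost with normexp (adjusted p = 0.0643), with the replicate block (adjusted p = 0.0523) and without wild-type LPS replicate 1, 3 or 4 or knockout LPS replicate 1 or 3 (0.62 to 0.71, adjusted p from 0.0557 to 0.0819). Grik2 was at -1.66, -1.69, -1.92 and -1.85 in wild type after saline, -1.63, -1.83, -1.57 and -2.25 in wild type after LPS, -1.47, -1.89, -1.62 and -1.99 in knockout after saline and -2.56, -2.27, -2.22 and -2.17 in knockout after LPS. It differed by 0.035 ± 0.18 (adjusted p = 0.884) after saline and -0.49 ± 0.18 (adjusted p = 0.0351) after LPS, and the second was lost without wild-type LPS replicate 1, 2 or 3 or knockout LPS replicate 1, 2 or 3 (-0.40 to -0.52). It was lost too with the slide as a random block (adjusted p = 0.0596), the replicate block (adjusted p = 0.0505), normexp (-0.34), quantile or median scaling (adjusted p = 0.0579 and 0.0562) and no filter on dim probes (adjusted p = 0.0545). Grik4 measured -0.21, 0.89, 2.27 and 2.20 in wild type after saline and 3.51, 1.59, 1.21 and 2.40 after LPS, against 2.97, 2.23, 2.10 and 2.03 in knockout after saline and 2.14, 2.41, 2.43 and 2.74 after LPS. Its wild-type arrays spread over more than its knockout arrays, and it was not called, at 1.05 ± 0.52 (adjusted p = 0.105) and 0.25 ± 0.52 (adjusted p = 0.714); without wild-type saline replicate 3 the first was 1.37 (adjusted p = 0.0448).

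NMDA receptors need the product of Grin1 and take their kinetics from the second kind of subunit. Grin1 had levels of -0.61, -0.77, -0.46 and -0.75 on the wild-type saline arrays and -1.02, -0.86, -0.90 and -1.30 on the wild-type LPS arrays, and of -0.92, -1.18, -0.76 and -0.85 and -1.51, -1.69, -1.07 and -0.95 on those of the knockout. It was not called between genotypes, at -0.28 ± 0.18 (adjusted p = 0.214) and -0.29 ± 0.18 (adjusted p = 0.213), until the GC share of the probe was corrected for (-0.74, adjusted p = 0.00798, and -0.62, adjusted p = 0.0221). Grin2b, the subunit of slowly closing receptors, was at 1.64, 0.97, 1.52 and 1.503 in wild type after saline, 0.89, 1.35, 1.74 and 1.44 in wild type after LPS, 3.49, 2.77, 2.65 and 2.60 in knockout after saline and 1.86, 2.37, 2.07 and 2.98 in knockout after LPS. All knockout arrays were above all wild-type arrays, by 1.47 ± 0.27 (adjusted p = 0.000435) and 0.96 ± 0.27 (adjusted p = 0.00859). Grin2d, found mainly in young brain and in interneurons, measured -3.04, -3.38, -0.71 and -1.44 in wild type after saline and -3.38, -1.60, -2.79 and -2.57 after LPS, against -0.37, -1.46, -0.34 and -0.39 in knockout after saline and -1.53, -1.37, -0.88 and -0.82 after LPS. Wild-type saline replicates 1 and 2 were far below replicates 3 and 4, and replicates 3 and 4 overlapped the knockout arrays. The difference was 1.504 ± 0.51 (adjusted p = 0.0234) and 1.44 ± 0.51 (adjusted p = 0.0312). With wild-type saline replicates 3 and 4 alone it was 0.44 (adjusted p = 0.46), and after GC correction it was 0.49 (adjusted p = 0.233) and 0.64 (adjusted p = 0.125).

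The Grin2d call was also lost after saline without wild-type saline replicate 1 or 2 or knockout saline replicate 1, 3 or 4 (1.09 to 1.42), and after LPS without wild-type LPS replicate 1, 3 or 4 or knockout LPS replicate 3 or 4 (1.17 to 1.44). The saline call was lost in the fit of the 2 groups compared alone (adjusted p = 0.0627), and normexp gave 0.95 after LPS. Grin2c, a subunit of cerebellum and astrocytes, had levels of 2.80, 3.13, 2.88 and 2.87 on the wild-type saline arrays and 2.76, 2.85, 2.62 and 2.83 on the wild-type LPS arrays, and of 3.83, 2.96, 2.86 and 3.16 and 2.69, 2.88, 2.60 and 2.64 on those of the knockout. The groups overlapped and neither genotype difference was called, at 0.28 ± 0.19 (adjusted p = 0.232) and -0.066 ± 0.19 (adjusted p = 0.795). Grin3b, at the dim end of the measured subunits, was at -4.56, -4.01, -4.42 and -4.22 in wild type after saline, -3.88, -4.07, -4.40 and -3.16 in wild type after LPS, -2.11, -3.37, -3.96 and -3.82 in knockout after saline and -3.03, -3.05, -3.35 and -2.91 in knockout after LPS. Its groups did not overlap after saline, where knockout saline replicate 1 was the highest array, and overlapped after LPS. It differed by 0.99 ± 0.34 (adjusted p = 0.0241) and 0.79 ± 0.34 (adjusted p = 0.0673). Its saline value was 0.59 (adjusted p = 0.0633) without knockout saline replicate 1 and 0.91 (adjusted p = 0.0629) without wild-type saline replicate 1, and it was not called with quantile scaling (adjusted p = 0.052), in the fit of the 2 groups compared alone (adjusted p = 0.0637) or with wild-type saline replicates 3 and 4 alone (adjusted p = 0.0852). Its LPS value was called without wild-type LPS replicate 4 (1.03, adjusted p = 0.0238) or knockout saline replicate 1 (adjusted p = 0.00994). Grin2a had -0.23 ± 0.28 (adjusted p = 0.507) and -0.25 ± 0.28 (adjusted p = 0.478). Of the delta receptors, orphan channels that organise synapses, Grid1 had 0.098 ± 0.22 (adjusted p = 0.737) and -0.032 ± 0.22 (adjusted p = 0.917).

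Group I metabotropic receptors stimulate phospholipase C after synaptic activity. Grm5 measured 3.35, 3.22, 3.08 and 3.10 in wild type after saline and 3.13, 3.18, 3.10 and 1.62 after LPS, against 4.69, 4.76, 4.49 and 4.35 in knockout after saline and 3.71, 4.05, 4.33 and 4.71 after LPS. Wild-type LPS replicate 4 was far below the others, and all knockout arrays were above all wild-type arrays, by 1.38 ± 0.30 (adjusted p = 0.00153) and 1.44 ± 0.30 (adjusted p = 0.00121).

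Group II and III receptors lower cyclic AMP and dampen transmitter release. Grm3, a group II receptor of astrocytes and neurons, had levels of 2.02, 2.13, 2.08 and 2.12 on the wild-type saline arrays and 2.18, 1.62, 1.45 and 2.19 on the wild-type LPS arrays, and of 1.61, 1.33, 0.97 and 1.12 and 1.77, 1.46, 1.24 and 1.05 on those of the knockout. It was called lower after saline, where the groups did not overlap, and not after LPS, at -0.83 ± 0.21 (adjusted p = 0.00406) and -0.48 ± 0.21 (adjusted p = 0.0673). After GC correction the saline value was -0.49 (adjusted p = 0.123), and the LPS value was called without wild-type LPS replicate 3 (-0.62), knockout LPS replicate 1 (-0.61) or knockout saline replicate 1. Grm2, the other group II receptor, was at -4.36, -4.34, -3.85 and -3.73 in wild type after saline, -4.66, -4.45, -4.53 and -4.43 in wild type after LPS, -5.77, -4.64, -4.19 and -4.26 in knockout after saline and -4.58, -4.93, -4.56 and -5.75 in knockout after LPS. It was well above background on 12 of the 16 arrays, including 1 of 4 knockout LPS arrays, and was not called. After saline, alternatives called it in opposite directions. It was lower with quantile scaling (-0.73, adjusted p = 0.0407) and GC correction (-0.996, adjusted p = 0.0425), and higher with normexp (1.07, adjusted p = 0.00608). Grm4 measured -5.41, -5.43, -4.23 and -4.46 in wild type after saline and -5.13, -5.34, -5.69 and -4.77 after LPS, against -5.56, -5.16, -4.79 and -5.67 in knockout after saline and -5.68, -5.57, -4.99 and -5.25 after LPS. It was well above background on 8 of the 16 arrays and on none of the knockout LPS arrays, where the measured mean of -5.37 lay under the detection bound of -4.96, so its comparisons with that group have no measured size. Alternatives divided on Grm4 after saline too. It was called lower with GC correction (adjusted p = 0.0259) and with wild-type saline replicates 3 and 4 alone (adjusted p = 0.0243), and higher with normexp (adjusted p = 0.00426). Grm7 had 0.49 ± 0.20 (adjusted p = 0.0539) and 0.28 ± 0.20 (adjusted p = 0.264), and Grm8 0.47 ± 0.19 (adjusted p = 0.0517) and 0.45 ± 0.19 (adjusted p = 0.0639). Without wild-type saline replicate 3, Grm7 and Grm8 were both called higher after saline (0.65, adjusted p = 0.014, and 0.54, adjusted p = 0.0456). Grm7 was called after saline also without knockout saline replicate 4 (0.58), and Grm8 without knockout saline replicate 1 (0.65) or knockout LPS replicate 4, and after LPS without either of these arrays.

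**Figure D3:**
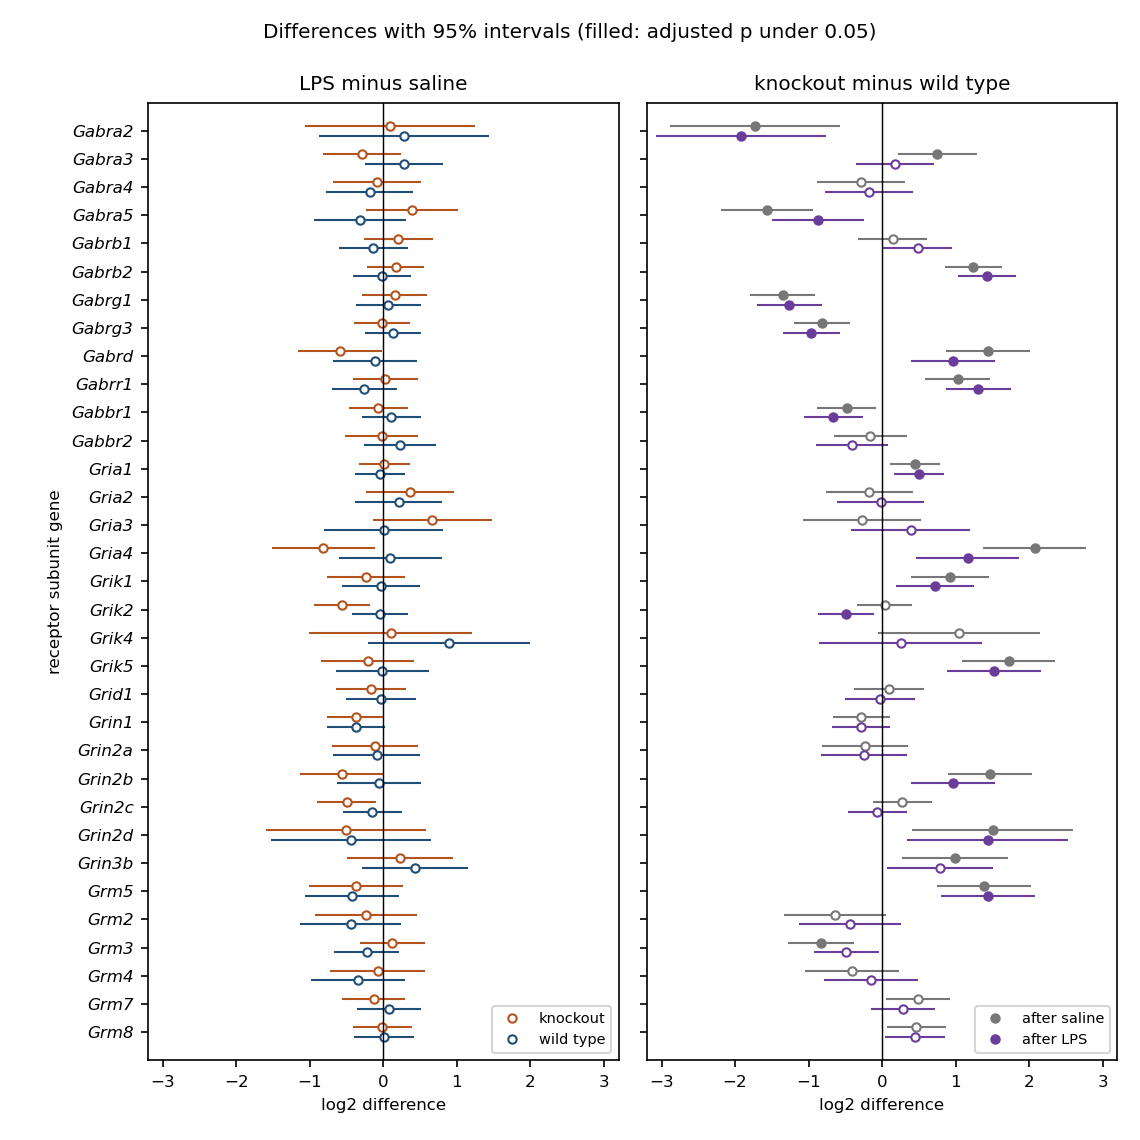
Log2 difference and 95% interval of the 33 subunit genes for LPS minus saline (left) and knockout minus wild type (right), filled where the adjusted p is under 0.05. No point is filled on the left, while 18 (after saline) and 16 (after LPS) are filled on the right.

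Without knockout saline replicate 1, 16 genes were called after saline and 20 after LPS, where 49.8% and 55.7% of all genes were called. With only wild-type saline replicates 3 and 4 in the saline group, 13 were called after saline, where 35.7% of all genes were called. Of the 15 genes called in both treatments, 5 kept their direction and call under every alternative tried, namely Gabrd, Gabrg1, Gabrg3, Gabrr1 and Grik5. Of these, 4 have 1 kept probe, and averaging the probes of a gene could not move their values. No alternative separates genotype from slide and session, and the share of all genes that held was not counted. The sizes of these genes still moved. With normexp background correction the saline differences of Gabrd, Gabrg3 and Grik5 were 0.87, -0.48 and 0.97 and the LPS difference of Gabrr1 was 0.87. With averaged probes the saline difference of Gabrg3 was -1.25, which includes a probe well above background on none of the knockout arrays.

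Genes with several probes gave a more divided picture, since probes of 1 gene often differed in direction. Of the 62 subunit probes, 34 were called after saline, 17 higher and 17 lower, and 30 after LPS, 13 higher and 17 lower. Among all 28347 kept probes 52.1% and 48.4% were called. Among the 16 subunit genes with at least 2 kept probes, 6 had probes called in opposite directions after saline and 3 after LPS, beside 923 of 6330 genes (14.6%) and 860 (13.6%) over the whole array. After saline these were Gabbr1, Gabra2, Gabra3, Gabrb2, Gria4 and Grm5, and after LPS Gabrb2, Grin2b and Grm5. With the kept probes of a gene averaged, the difference after saline changed sign for Gabra2, Gabra3, Gabrb2, Gria4 and Grm5, all of them called with the brightest probe. With averaged probes the saline calls of Gria1 and Grin2b were lost as well, and after LPS those of Gabra2, Gabrb2, Gria1, Gria4, Grik2, Grin2b and Grm5.

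Probes of the genes divided after saline are shown, where brighter and dimmer probes of 1 gene differed in direction, with that of Grin2d for its base composition. Each is given 5′ to 3′ from the array files with G and C in capitals, as the first 30 bases or, for the probes of Gabbr1 and Grin2d and A_52_P364645 of Gabra3, the whole 60 bases, and coordinates are on mm9. Over all kept probes the genotype difference after saline had a median of -0.35 in probes of at most 35% GC and 0.48 in those over 50%, and Pearson's r between GC share and difference was 0.22 across the 28347 probes and 0.26 across the 62 subunit probes (after LPS 0.17 and 0.15). Among the subunit probes the median after saline was -0.73 in the 16 of at most 35% GC, 0.67 in the 8 between 45% and 50%, and -0.28 in the 11 over 50%, so the highest class did not follow the course over all probes. Probes of 1 gene are not independent of each other and all share the arrays, so these correlations carry no p-value. The part of base composition in the differences was not tested beyond the correction reported here.
Gabbr1 probe A_52_P592639: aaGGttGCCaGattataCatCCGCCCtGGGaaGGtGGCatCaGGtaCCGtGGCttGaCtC
Gabbr1 probe A_51_P464900: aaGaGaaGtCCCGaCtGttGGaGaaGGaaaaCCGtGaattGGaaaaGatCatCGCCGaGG
Gabra2 probe A_51_P417507: aCaGGCaGaaaaCatCCCGtGCCaaaaGaG
Gabra2 probe A_52_P446146: aaCCttCCtCaCGaaaatCaaaaGtaatCC
Gabra3 probe A_52_P264550: GCCCtttataGCCaGttGaGtattGCttat
Gabra3 probe A_52_P364645: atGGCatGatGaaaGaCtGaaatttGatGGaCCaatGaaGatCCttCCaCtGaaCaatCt
Gabrb2 probe A_52_P91563: CaGttCCtaaGaaCattGCaCaGtttGaCt
Gabrb2 probe A_52_P460687: tGCaGatGaatCtttCCCCtCatGattaaC
Gria4 probe A_51_P501735: CGattaGaCaGaGCtCGGGattGGCtGtCa
Gria4 probe A_52_P279527: tCCCattCaataaCtGtGtGtCaCtaCaat
Grm5 probe A_51_P465591: aaCCaaGaaaaCCaGtGCaaGatttCtGGa
Grm5 probe A_51_P333441: aGaaGGaGGtattCtataaatttaaaGttC
Grin2d probe A_51_P157154: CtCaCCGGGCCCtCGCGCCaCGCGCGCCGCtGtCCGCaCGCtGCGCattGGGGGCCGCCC

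In Gabbr1, the upstream probe A_52_P592639 (chr17:37183719-37184455, an interval that holds an intron) was lower in knockout, at -1.94 ± 0.27 (adjusted p = 4.24e-05) after saline and -1.68 ± 0.27 (adjusted p = 0.000149) after LPS. A_51_P464900 (chr17:37209174-37209232), further along the transcript, was higher, by 0.79 ± 0.24 (adjusted p = 0.0117) after saline. It was not called after LPS, at 0.17 ± 0.24 (adjusted p = 0.577). The brightest probe, A_52_P16232 (chr17:37210986-37211045), lies furthest along. It was lower in both treatments, at -0.48 ± 0.19 (adjusted p = 0.0455) and -0.66 ± 0.19 (adjusted p = 0.0103). In Gabra2, A_51_P417507 (chr5:71352793-71352852), the brighter probe, was lower. A_52_P446146 (chr5:71350832-71350891), further along the gene and annotated to another transcript record, was higher, at 2.05 ± 0.59 (adjusted p = 0.00911) after saline. It was not called after LPS, at 1.08 ± 0.59 (adjusted p = 0.143). In Gabra3, A_52_P364645 (chrX:69746547-69746606) was lower in both treatments, at -1.09 ± 0.37 (adjusted p = 0.0227) and -1.30 ± 0.37 (adjusted p = 0.00936), where A_52_P264550 (chrX:69679157-69679216) was higher after saline.

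The 2 Gabrb2 probes shown, A_52_P91563 (chr11:42444018-42444077) and A_52_P460687 (chr11:42442194-42442253), have the same GC share of 38.3% and were called in opposite directions in both treatments, the second at -0.96 ± 0.20 (adjusted p = 0.0011) and -1.13 ± 0.20 (adjusted p = 0.000332). In Gria4, A_52_P279527 (chr9:4418375-4418434) was lower, at -0.78 ± 0.28 (adjusted p = 0.0277) after saline, against the rise on A_51_P501735 (chr9:4420142-4420201). In Grm5, A_51_P333441 (chr7:95280993-95281052) was lower, at -1.79 ± 0.50 (adjusted p = 0.00738) and -1.39 ± 0.50 (adjusted p = 0.0311), against the rise on A_51_P465591 (chr7:95280099-95280158). In Grin2b, A_51_P265765 was lower after LPS, at -0.95 ± 0.31 (adjusted p = 0.0196), against the rise on the brightest probe. The Grin2d probe (chr7:53088243-53088302) is 81.7% G and C, the highest share among the probes chosen for the 33 genes, and its call ended under the GC correction.

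In Gria2, Gabbr2, Gria3 and Grm7, dimmer probes were called where the brightest was not. On the knockout arrays, A_52_P272364 of Gria3 lay between -6.96 and -5.005 and A_52_P551544 of Grm7 between -5.84 and -4.59. These levels lie near or under the bound of -4.96 given above for Grm4 in knockout after LPS, so their sizes are not given. The brightest Gria2 probe did not differ between genotypes beyond its error, while A_52_P360995 was lower, at -2.66 ± 0.36 (adjusted p = 3.73e-05) after saline and -2.30 ± 0.36 (adjusted p = 0.000129) after LPS, and A_52_P891243 at -1.37 ± 0.33 (adjusted p = 0.00277) and -1.07 ± 0.33 (adjusted p = 0.0138). The first of these was well above background on 3 of 4 knockout saline and 2 of 4 knockout LPS arrays. In Gabbr2, A_52_P176616 was higher by 0.79 ± 0.17 (adjusted p = 0.00159) and 0.87 ± 0.17 (adjusted p = 0.000799). The other, A_52_P612928, was called higher too, but it was well above background on only 2 of 4 wild-type saline, 1 of 4 wild-type LPS and 2 of 4 knockout LPS arrays, against 4 of 4 after saline in knockout, and its size is not given. Only Gabra5, Gabrg3 and Grik1, of the 16 genes, had every kept probe called in 1 direction in both treatments, and the second probe was well above background on 0 of 8 knockout arrays for Gabrg3 and on 1 of 4 wild-type LPS arrays for Grik1.

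**Figure D4:**
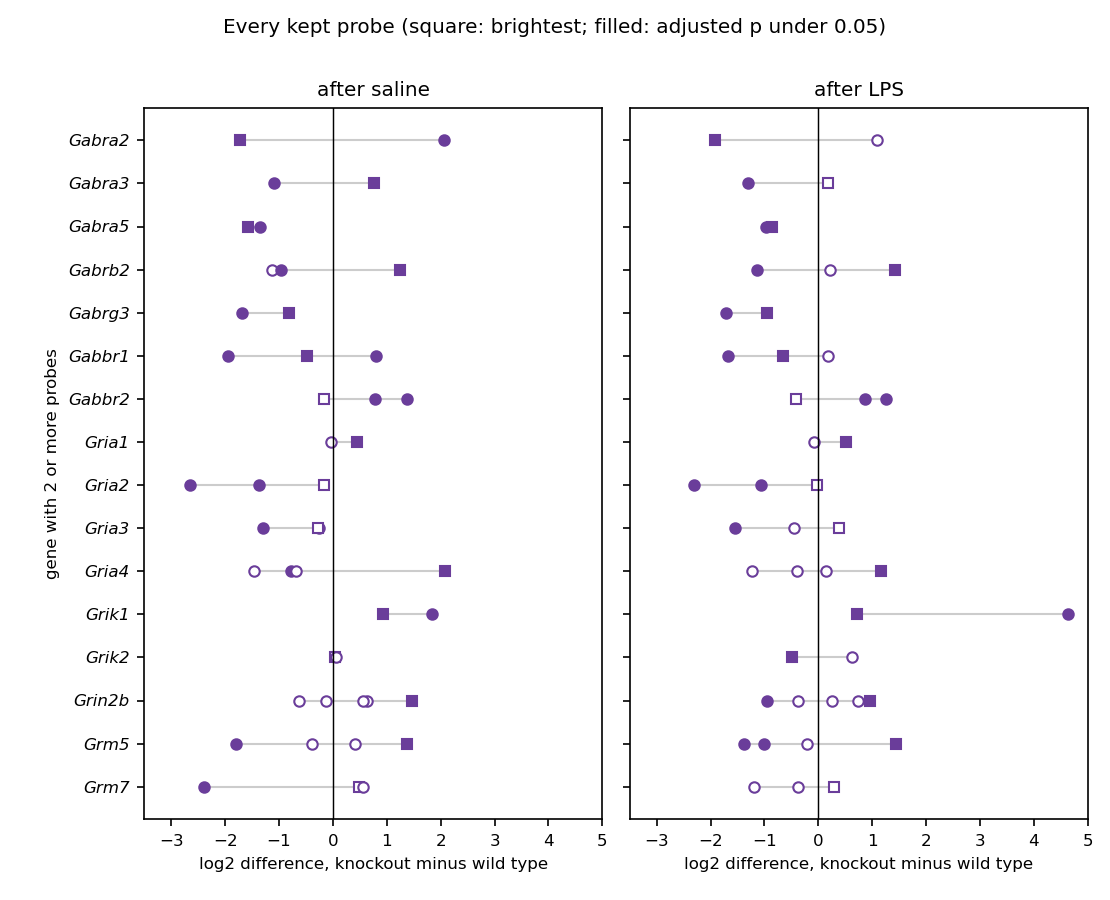
Log2 difference, knockout minus wild type, of every kept probe of the 16 subunit genes with at least 2 kept probes, after saline (left) and after LPS (right). Squares are the brightest probe of the gene and filled symbols have an adjusted p under 0.05; filled symbols stand on both sides of 0 for 6 genes on the left and 3 on the right.

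A pair of probes for AMPA subunits lies in a stretch that the paralogs share, and is shown because it gives the likeness of family members at the level of a probe. The probes A_51_P498031 of Gria1 (chr11:57102930-57102989) and A_52_P179309 of Gria3 (chrX:39007367-39007426) align over 56 bases, of which 43 (76.8%) are identical, and the 13 that differ are in capitals. Neither was called between genotypes, at -0.042 ± 0.18 (adjusted p = 0.859) and -0.26 ± 0.23 (adjusted p = 0.374) after saline.
Gria1 probe A_51_P498031: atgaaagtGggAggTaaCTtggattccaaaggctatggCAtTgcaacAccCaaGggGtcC
Gria3 probe A_52_P179309: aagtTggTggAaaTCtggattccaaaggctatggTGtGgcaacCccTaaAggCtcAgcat

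The second question was whether the subunits responded to LPS. No subunit gene was called in either genotype. In knockout 3.65% of all genes were called and in wild type 0.0103%. Unadjusted p-values under 0.05 were found for 4 subunit genes in knockout and 0 in wild type, beside 2829 and 1290 of all 19463 genes. The lowest adjusted p of a subunit gene was 0.11 and 0.756. The median difference of the 33 genes was -0.079 in knockout and -0.036 in wild type, beside -0.093 and -0.041 for all genes. None of the differences reached 1 in size, the largest being 0.82 and 0.89. The 95% interval lay within 1 log2 unit of 0 for 24 genes in knockout and 27 in wild type, with a median distance of 0.53 (0.34 to 1.16) from the estimate to either end. Of the 62 probes none was called in either genotype, where 3.04% of all probes were called in knockout and 0% in wild type. An unadjusted p under 0.05 was found for 7 and 2 of the 62, and such probes were not counted over the whole array.

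In knockout the smallest p belonged to Grik2, at -0.57 ± 0.18 (adjusted p = 0.11), and its 4 LPS arrays lay below its 4 saline arrays. It was the only 1 of the 33 genes without overlap there, where 11.3% of all genes had none. The groups did overlap on its second kept probe, A_52_P655120. That probe measured -6.47, -4.68, -4.19 and -4.05 in knockout after saline and -3.89, -4.49, -4.13 and -5.32 after LPS. Gria4 differed by -0.82 ± 0.33 (adjusted p = 0.249), with knockout LPS replicate 4 inside the range of the saline arrays. Without that array the difference was -1.16 (adjusted p = 0.032), the only call of a subunit gene for LPS in any alternative run. The other kept probes of Gria4 went the other way for LPS in knockout and were not called. In the authors' deposited group means they were higher by 0.57, 0.20 and 0.58. Grin2c differed by -0.50 ± 0.19 (adjusted p = 0.208), Gabrd by -0.59 ± 0.27 (adjusted p = 0.321) and Grin2b by -0.56 ± 0.27 (adjusted p = 0.358). Knockout saline replicate 1 was the highest array of its group for Grik2, Gria4, Grin2c, Gabrd and Grin2b, and differences without it are not given. In wild type the smallest p-values were those of Grin1, at -0.37 ± 0.18 (adjusted p = 0.756), Grik4, at 0.89 ± 0.52 (adjusted p = 0.812), Grm5, at -0.43 ± 0.30 (adjusted p = 0.867), Grm2, at -0.45 ± 0.33 (adjusted p = 0.876), and Grin3b, at 0.43 ± 0.34 (adjusted p = 0.896). Grin1 and Grm2 had no overlap between the 2 wild-type groups, where 4.75% of all genes had none.

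With wild-type saline replicates 3 and 4 alone as the saline group, 610 genes were called for LPS in wild type and still no subunit gene. The second Grik1 probe, A_52_P660400, had levels of -3.25, -2.27, -3.65 and -3.83 in wild type after saline and -6.87, -3.89, -6.97 and -6.53 after LPS. It was well above background on 1 of 4 wild-type LPS arrays, so the size of that difference is not measured, and it was not called (adjusted p = 0.189). Its knockout arrays all lay between -1.80 and -1.20.

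The third question was whether the LPS response depended on genotype. No subunit gene was called for the difference between the responses, where 0.0360% of all genes were called. None had an unadjusted p under 0.05, beside 1346 of all 19463 genes. The smallest p-values belonged to Grik2, at -0.52 ± 0.25 (adjusted p = 0.738), Gria4, at -0.91 ± 0.47 (adjusted p = 0.764), Gabra5, at 0.70 ± 0.42 (adjusted p = 0.837), Gabra3, at -0.58 ± 0.35 (adjusted p = 0.857), and Grin2b, at -0.50 ± 0.38 (adjusted p = 0.895). In knockout, the other kept probes of Grik2 and Gria4 did not share the lower LPS values of the brightest probe. The intervals were wider here, with a median distance of 0.76 (0.48 to 1.64) from the estimate to either end, and lay within 1 log2 unit of 0 for 18 of 33 genes. Of the subunit probes none was called, with 0.00353% called over all probes.

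The lists of genes that act beside these receptors hold auxiliary subunits but none of the receptor genes taken by name. Their genes were also called in both directions between genotypes and were not called for LPS. Their counts, and those of the marker genes after them, stand beside 51.0% of all genes called after saline and 47.2% after LPS. Of 21 inhibitory synapse genes, 5 were higher and 5 lower in knockout after saline (median -0.32) and 4 and 5 after LPS (median -0.21). Gphn, the gephyrin scaffold under GABA-A receptors, was higher by 0.59 ± 0.13 (adjusted p = 0.00192) after saline and 0.50 ± 0.13 (adjusted p = 0.00609) after LPS. Insyn1, a gephyrin-associated protein, was higher by 1.48 ± 0.19 (adjusted p = 2.89e-05) and 1.31 ± 0.19 (adjusted p = 7.94e-05), and Kctd8, an auxiliary GABA-B subunit, was lower, at -2.55 ± 0.38 (adjusted p = 8.79e-05) and -1.89 ± 0.38 (adjusted p = 0.000978).

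Of 34 excitatory synapse genes measured, 6 were higher and 10 lower in each treatment (median -0.14 and -0.0014). Neto1, an auxiliary kainate receptor subunit, was lower after saline, at -1.53 ± 0.22 (adjusted p = 6.4e-05), and Dlgap2, a postsynaptic scaffold, was higher by 2.49 ± 0.37 (adjusted p = 9.07e-05) and 2.81 ± 0.37 (adjusted p = 3.55e-05). Of 7 genes of glial uptake and recycling, 3 were higher and 1 lower in each treatment (median 0.46 and 0.26). Slc1a2, the main glutamate transporter of astrocytes, was higher by 1.36 ± 0.22 (adjusted p = 0.000183) and 0.97 ± 0.22 (adjusted p = 0.00245), and Glul, glutamine synthetase, by 1.14 ± 0.25 (adjusted p = 0.00147) and 0.96 ± 0.25 (adjusted p = 0.00507). None of the genes of the 3 lists was called for LPS in either genotype.

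Marker genes of cell types and neighbouring regions moved with genotype, and their part in the subunit results was not tested. In bulk tissue, fewer cells of a type and less RNA per cell cannot be told apart. The 11 neuronal markers included 3 higher and 1 lower in knockout after saline and 4 and 1 after LPS. Of 12 GABAergic neuron markers 3 were higher and 5 lower in each treatment, and their mean level was 0.79 to 1.29 in wild type and 1.09 to 1.30 in knockout. Of 8 glutamatergic neuron markers 5 were lower and none higher after saline and 3 lower and 1 higher after LPS, and the mean level was 1.32 on knockout saline replicate 1 against 1.97 to 2.15 on the other 3 arrays of that group. Of 8 markers of basolateral amygdala and cortex 4 were lower in each treatment, with mean levels of 0.26 to 0.91 in wild type and -0.96 to 0.16 in knockout, the lowest again on knockout saline replicate 1. Of 11 striatal markers 7 were lower after saline and 4 after LPS, with mean levels of -0.064 to 1.30 in wild type and -0.77 to -0.25 in knockout. Of 11 oligodendrocyte markers 7 were lower after saline, and 8 lower and 1 higher after LPS, with mean levels of 0.50 to 2.19 in wild type and 0.19 to 0.79 in knockout. Astrocyte markers were 4 higher and 4 lower after saline and 4 higher and 2 lower after LPS among 10, at mean levels of 2.72 to 3.05 in wild type and 2.93 to 3.06 in knockout.

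In the authors' deposited table of group means, 17 of the 18 called genes after saline and all 16 after LPS were listed, and every listed gene had the same sign there. That table was made from the same arrays, so the shared sign is not independent support. The authors' deposited table of fold changes lists the chosen probe of 9 subunit genes at 2-fold or more up and 3 down in knockout after saline, 6 up and 2 down after LPS, and 0 for LPS in either genotype. Among other probes, it lists Gabrb2 A_51_P227679 at 2.11-fold up for LPS in knockout. In wild type it lists Grik1 A_52_P660400 and Grm7 A_52_P551544 at 7.04-fold and 2.17-fold down for LPS. None of these probes was called for LPS here.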

How the data were processed

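Single-colour arrays of whole-amygdala RNA were analysed, 4 per group. Per the file headers, the processed intensity of each spot had been background-subtracted and detrended within its array, and the submitters' processing notes name Agilent Feature Extraction 9.5. The authors' deposited lists hold log2 values averaged over a group and linear fold changes between group means; 32 per-array columns of detection calls in them were not used. Control and outlier spots were left out. Values are log2 intensity minus the 75th percentile of the array. Probes were kept where well above background on at least 3 of 4 arrays of 1 group (28347 of 41174), and a gene took its brightest kept probe (19463 genes). limma 3.58.1 in R 4.3.3 was fitted to 4 group means over 16 arrays, with Benjamini-Hochberg adjustment over all genes. Probe fits covered all kept probes. In data simulated for LPS minus saline in knockout (19463 genes), 32 of 100 genes changed by 1 log2 unit and 84 of 100 changed by 2 were called, with 9 false calls.

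Some subunit genes are not reported here, and counts of subunit genes leave them out. The genes and gene lists were chosen with earlier results of these data known. Values by array are given for genes called for LPS, the 5 largest called differences per direction and genotype comparison, the 5 smallest p-values per other comparison, genes with opposite probe calls and dim genes. At most 4 other genes are named per synapse list, by p. Alternatives were other background correction, scaling, filters and probe rules, slide or replicate blocks, single slides, arrays left out and a GC correction. The arrays were all distinct (smallest median absolute log2 difference between 2 arrays 0.136). The number of arrays limits the precision.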

Additional observations from a re-analysis of the deposited data

Results flagged for a closer look

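In 12 of the 132 sets of 4 arrays (33 genes in 4 groups), 1 array lay far from the other 3, where about 1 set in 20 would do so by chance. Knockout saline replicate 1 was that array in 6 sets. It was the lowest of its group for Gabra2 (-2.34, the others 0.80 to 1.001), Gabra5 (-1.39, the others -0.042 to 0.072), Gria2 (4.20, the others 5.51 to 5.60) and Gria3 (0.45, the others 2.52 to 2.61). It was the highest for Grik1 (2.02, the others 1.12 to 1.24) and Grik5 (5.34, the others 3.56 to 3.83).

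The other 6 sets involved 4 arrays. Knockout LPS replicate 3 was lowest for Gabrb2 (4.79, the others 5.15 to 5.17) and Gabrr1 (-2.33, the others -2.05). Knockout saline replicate 2 was lowest for Grid1 (-3.68, the others -3.43 to -3.39) and Grin2d (-1.46, the others -0.39 to -0.34). Wild-type saline replicate 1 was lowest for Gabrd (1.72, the others 2.66 to 2.74), and wild-type LPS replicate 4 for Grm5 (1.62, the others 3.10 to 3.18).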

How the results depend on the processing

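No subunit gene was called for LPS or for the difference between the LPS responses in any alternative run, except that leaving out 1 array gave 0 to 1 calls in knockout (1 without knockout LPS replicate 4). Counts of subunit genes called between genotypes stayed within 1.5 times of 18 and 16. The median difference of the 33 genes moved more. After saline (0.15) it was 0.50 with normexp background correction, 0.28 with the filter set to detection on all 16 arrays, -0.098 with the probes of a gene averaged and 0.12 to 0.25 with 1 array left out. After LPS (0.18) it was -0.078 with averaged probes, -0.027 with the GC correction and 0.055 to 0.21 with 1 array left out. For LPS in knockout (-0.079) it was -0.14 with normexp, -0.030 with the GC correction and -0.14 to -0.024 with 1 array left out. For LPS in wild type (-0.036) it was 0.070 on slide 1, -0.16 on slide 2 and -0.14 with wild-type saline replicates 3 and 4 alone. For the difference between responses (-0.068) it was -0.23 with normexp, 0.081 with wild-type saline replicates 3 and 4 alone and -0.17 to 0.029 with 1 array left out. Normexp raised the median of all genes after saline from 0.065 to 0.44 and turned 5542 higher and 4390 lower calls into 8681 and 3209. The causes of these shifts were not tested.

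With averaged probes the direction turned after saline for Gabbr2 (0.67), Gabra2 (0.16), Gabra3 (-0.17), Gabrb2 (-0.28), Gria4 (-0.21) and Grm5 (-0.10), and after LPS for Gabbr2 (0.57), Gabra3 (-0.56), Gria4 (-0.078), Grik2 (0.071) and Grm5 (-0.29). After saline it turned with quantile scaling for Gria1 (-0.10) and with normexp for Grin2a (0.67), Grm2 (1.07) and Grm4 (1.22). Normexp also gave saline calls for Gria3 (-0.92), Grid1 (0.86) and Grm7 (0.67). With the slide as a random block, 17 genes were called after saline and 15 after LPS. The replicate numbers did not pair the arrays (correlations from -0.38 to 0.34). With the replicate block, 16 and 14 subunit genes were called between genotypes and 0 for LPS. In the fit of the 2 groups compared alone, 12 and 20 were called. In the simulated LPS comparison in knockout 32 of 100 changes of 1 log2 unit were called.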
